A study of Mus musculus with 6 samples.

Results

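Cxcl9 and Cxcl10 are secreted chemokines that share 1 receptor, Cxcr3, and the 3 genes are 3 of the 20394 rows of the count table, found by their symbols. Their unique molecular identifiers (UMIs, tags that each mark 1 captured RNA molecule) were counted in 32953 cells from inflamed mouse knees. Cxcl9 gave 38256 UMIs in 1229 cells, Cxcl10 gave 46034 UMIs in 3248 cells and Cxcr3 gave 1337 UMIs in 885 cells.

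The cells were sorted for the leukocyte protein CD45 from digested synovium of C57BL/6 mice with antigen-induced arthritis (AIA), and were sequenced 1 by 1 in droplets from the 3′ ends of their transcripts. All mice had been immunized with 10 µg of methylated bovine serum albumin (mBSA) in complete Freund's adjuvant and had received 100 µg of mBSA into the knee on day 21, and the tissue was taken on day 3 after that. The PBS group (2 samples) received vehicle and the PEPITEM group (4 samples) received 300 µg of PEPITEM, a peptide of 14-3-3ζδ, into the peritoneum. All 6 samples thus share the immunization, the adjuvant and the arthritic joint, and none comes from a healthy joint.

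The question that the groups pose, whether PEPITEM changes these genes, could not be put to the table. Each barcode ends in a library number from 1 to 6, and no source used here says which number belongs to which sample. The library numbers are therefore given side by side as 6 libraries of unknown treatment, without a mean, a standard deviation or a test between them. They held 2919 to 9345 cells, 47273569 to 123367661 UMIs and a median of 9923 to 14001 UMIs per cell. A total of 276 cells carried 138 barcodes that occur under 2 numbers, and they included 10 Cxcl9-positive, 23 Cxcl10-positive and 4 Cxcr3-positive cells.

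In the chemokine system, Cxcl9 is known as a gene that interferon-γ switches on in macrophages and dendritic cells. Cxcl10 answers to interferon-γ, to type I interferons and to NF-κB, and is made by a wider range of cells. Cxcr3 is a receptor of activated T cells and natural killer (NK) cells, above all of the type 1 lymphocytes that depend on the transcription factor T-bet (Tbx21) and release interferon-γ, and it draws these cells along gradients of its ligands into inflamed tissue. The inflamed synovium of arthritic joints is a tissue in which both ligands are known to be made. A further ligand, Cxcl11, is marked in the mouse annotation as a polymorphic pseudogene and has no row in the table.

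Both ligand genes lie on the minus strand of chromosome 5 in GRCm38 (the assembly also called mm10). The Cxcl9 gene (ENSMUSG00000029417.9) spans 92321347 to 92328079, the Cxcl10 gene (ENSMUSG00000034855.13) spans 92346638 to 92348889, and 18558 bases lie between them. The Cxcl10 gene sits inside Art3, a gene of the opposite strand (92331827 to 92414628) that reached 25.8 CPM (counts of a gene per 1000000 UMIs) in fibroblasts and at most 2.97 CPM in the other classes, and the strand setting of the counting is not given in the sources used here. The Cxcr3 gene (ENSMUSG00000050232.6) lies on the minus strand of chromosome X from 101731535 to 101734269.

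The 250 bases before the start of each ligand gene are shown because the cells with Cxcl9 and the cells with Cxcl10 are set beside interferon-induced genes further on. Capitals mark matches to 2 motifs, the interferon-stimulated response element and the NF-κB site. The sequences come from RefSeq (GRCm38.p6, minus strand, 5′ to 3′), chr5:92328080-92328329 for Cxcl9 and chr5:92348890-92349139 for Cxcl10.

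Cxcl9: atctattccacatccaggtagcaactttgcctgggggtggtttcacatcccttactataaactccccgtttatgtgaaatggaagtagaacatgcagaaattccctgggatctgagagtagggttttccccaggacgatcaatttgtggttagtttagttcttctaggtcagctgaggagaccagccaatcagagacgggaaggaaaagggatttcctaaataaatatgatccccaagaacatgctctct
Cxcl10: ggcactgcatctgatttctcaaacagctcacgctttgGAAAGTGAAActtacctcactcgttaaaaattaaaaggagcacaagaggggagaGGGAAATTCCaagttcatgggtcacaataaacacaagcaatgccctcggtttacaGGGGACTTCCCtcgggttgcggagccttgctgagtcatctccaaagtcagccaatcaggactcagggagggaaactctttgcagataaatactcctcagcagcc

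The Cxcl10 window holds 1 match to the interferon-stimulated response element (searched as GAAANNGAAA on both strands), 213 to 204 bases before the start. It also holds NF-κB site matches 159 to 150 bases before the start, and 2 overlapping ones at 104 to 95 and 103 to 94. The windows of Cxcl9 and Cxcr3 hold none of these matches, and no window of the 3 genes holds the interferon-γ-activated site, searched as TTCNNNGAA. Among all 32817 promoter windows of the same length, 2.97% hold the response element, 7.25% the NF-κB site and 7.01% the interferon-γ-activated site. A match is a stretch of letters and not a measured binding site, and a window without one says nothing about what controls the gene.

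The cells were sorted into classes by marker genes, and each class name stands for cells that carry those markers. Of the classes, 23 held at least 50 cells, and 288 cells (0.874%) took none. The gate called "other macrophage" below holds the 3442 macrophages without at least 3 markers of resident tissue macrophages such as Lyve1 and Timd4, and is led by Apoe, Ms4a7, Ccl8, Pdpn, Arg1 and C1qb. It made up 5.00 to 25.7% of the cells of a library, the classical monocyte gate (Ly6c2, Ccr2) 14.0 to 19.2% and the T cell gate 2.12 to 6.99%. Precursor B cells, granulocyte precursors and stem and progenitor cells, which are cells of the bone marrow, were present beside fibroblasts in the CD45-sorted sample. Levels are the CPM of all cells of a class together, with exact Poisson 95% confidence intervals, and shares of positive cells (at least 1 UMI) carry Wilson 95% intervals. Both kinds of interval cover counting error only.

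Cxcl9 was concentrated in few cells. Of all cells, 3.73% (3.53 to 3.94%) were positive, with a median of 8 UMIs per positive cell and a maximum of 478. The 123 cells with the most UMIs held 52.8% of all Cxcl9 UMIs, and the 569 cells with at least 10 UMIs held 95%. Over the whole library, Cxcl9 stood at 53.4, 8.94, 200.4, 221, 64.4 and 29.6 CPM in library numbers 1 to 6. Library 2 was the lowest and library 4 the highest.

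Macrophages and monocytes held most of the Cxcl9 RNA, while migratory and type 2 dendritic cells reached the highest pooled levels of the gated classes. The other macrophage gate held 16839 UMIs (44.0% of the gene's total) and the classical monocyte gate 11998 (31.4%). The 3 conventional dendritic cell gates together, with 851 cells, held 16.4% at 346 CPM. Both gates that hold most of the RNA are large, and their pooled levels lie below those of migratory and type 2 dendritic cells. A cluster made mostly of cells from these 2 gates, described further on, stood higher than any gated class, at 832 CPM.

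By pooled level, migratory dendritic cells (Ccr7, Fscn1), which carry antigen to lymph nodes, came first of the gated classes with 461 CPM (432 to 491) in 116 cells. In this class, Cxcl9 stood at 131, 17.2, 437, 1119 and 909 CPM in libraries 1 to 5, and library 6 had fewer than 10 such cells. Type 2 dendritic cells, which present antigen to CD4 T cells, followed with 366 CPM (356 to 377) in 566 cells. Their libraries stood at 194, 0, 860.0, 385, 437 and 136 CPM, so library 2 had no UMI of Cxcl9 in this class.

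The other macrophage gate stood at 241 CPM (238 to 245). Its libraries 1 to 6 stood at 78.3, 44.7, 239, 644, 230.2 and 199 CPM, with 9.95, 1.28, 19.0, 24.1, 20.8 and 12.0% of the cells positive. Library 4 decides this level, which is 156 CPM without it. Type 1 dendritic cells (Clec9a, Xcr1), which present antigen to CD8 T cells, stood at 225 CPM (211 to 241) with libraries from 2.20 to 813 CPM. The intervals of these neighbouring classes touch, and their libraries overlap. The order of the pooled levels also changed between libraries. Type 2 dendritic cells stood above other macrophages in libraries 1, 3 and 5 but below them in libraries 2, 4 and 6. Of libraries 1 to 5, migratory dendritic cells stood above both only in libraries 4 and 5, with 16 cells in each.

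Classical monocytes, the blood-derived precursors of inflammatory macrophages, stood at 95.7 CPM (94.0 to 97.4) with 6.52% of the cells positive. Their libraries 1 to 6 held 97.1, 9.82, 245, 216, 126 and 28.3 CPM. Resident macrophages stood at 49.9 CPM, with libraries at 0.878, 0, 103, 118, 13.4 and 6.52 CPM. Resident macrophages of libraries 3 and 4 thus held most of what this class showed, and those of library 1, where monocytes and other macrophages were positive, held almost none.

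Lymphocytes and neutrophils held little Cxcl9. Neutrophils stood at 5.77 CPM with 42 positive cells (0.401%), CD4 T cells at 11.4 CPM and B cells at 2.14 CPM (0.264% positive). The B cell share is given as a low class to compare with, and 66 of its 84 UMIs lay in 2 cells. The part of free RNA and mixed droplets in it was not tested. In the few Cxcl9-positive B cells, 8 macrophage markers summed to 1212 CPM against 90.6 CPM in the other B cells, and in Cxcl9-positive neutrophils to 157 against 56.5 CPM. The neutrophil gate, unlike the B cell gate, takes no cell with at least 3 macrophage markers. Neutrophil and B cell values thus come from unlike rules. No UMI of Cxcl9 was found in 571 plasmacytoid dendritic cells, 495 precursor B cells or 185 mast cells, which allows shares of up to 0.525%, 0.606% and 1.62%. For Cxcl9, 2 of the plasmacytoid dendritic cells and 2 of the precursor B cells have an entry stored as 0. The limits take such entries as they are stored. The stem and progenitor value of 13.8 CPM came almost whole from 1 cell, with 118 of 120 UMIs.

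**Figure D1:**
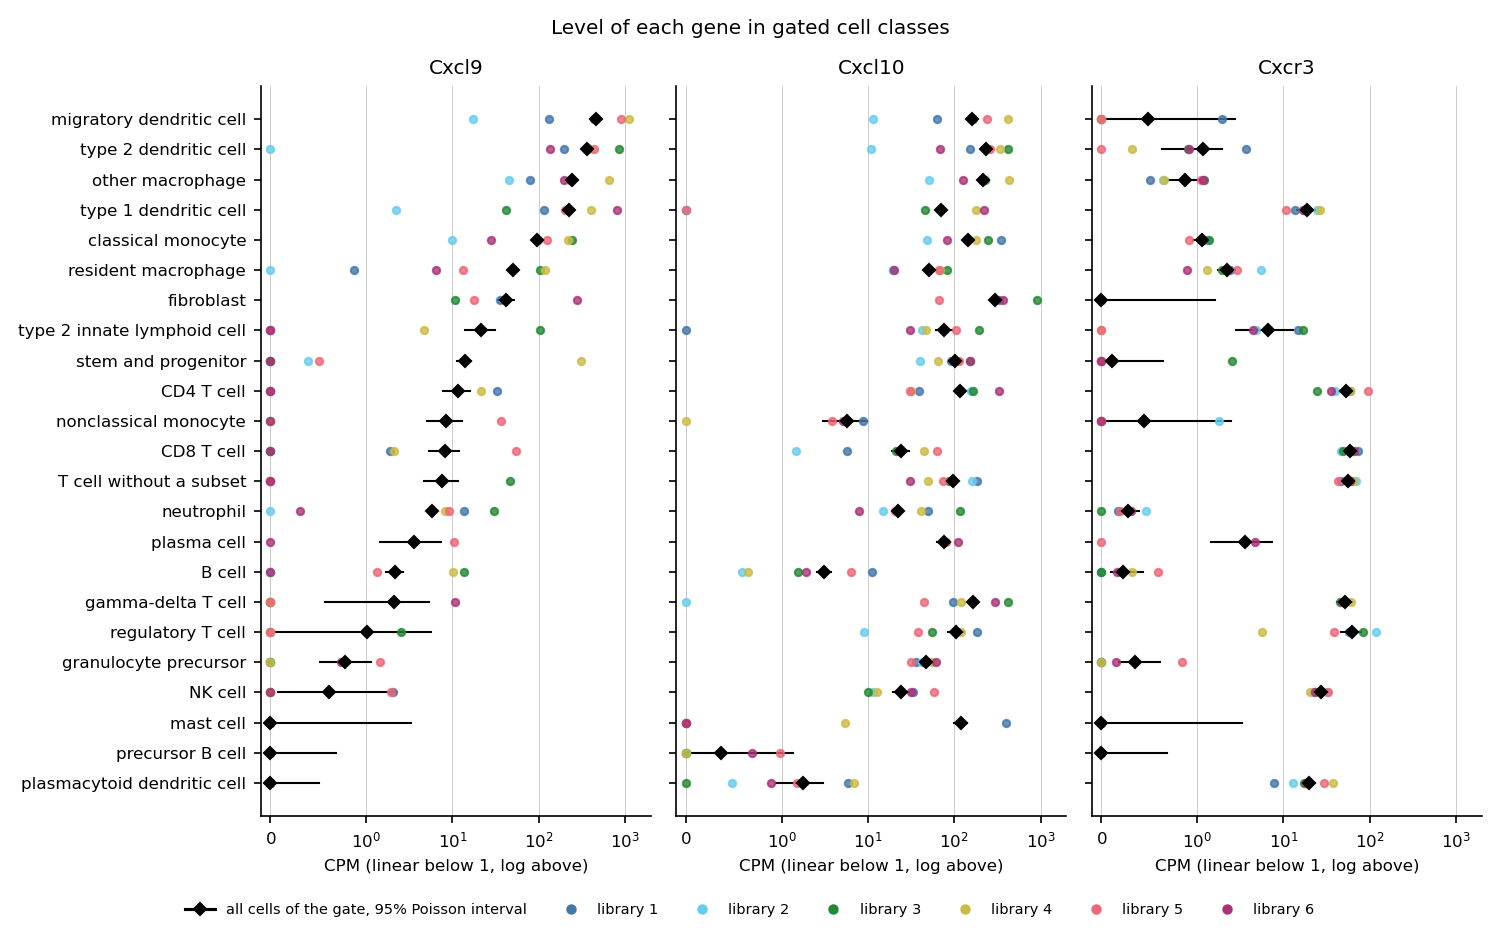
Level of Cxcl9, Cxcl10 and Cxcr3 (CPM of summed UMIs, axis linear near 0 and logarithmic above) in 23 marker-gated classes, 1 panel per gene. Diamonds are the pooled level with its exact Poisson 95% interval and coloured points are library numbers with at least 10 cells of the class. By pooled level, Cxcl9 is led by migratory dendritic cells (461 CPM), Cxcl10 by fibroblasts (298 CPM, 159 CPM without 2 cells) and Cxcr3 by the T cell subsets (51.0 to 61.5 CPM).

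Cxcl10 was found in more cells and more classes than Cxcl9. Of all cells, 9.86% (9.54 to 10.2%) were positive, with a median of 3 UMIs per positive cell, a maximum of 428 and 37.0% of the positive cells at a single UMI. The 325 cells with the most UMIs held 62.0% of the UMIs. Over the whole library, Cxcl10 stood at 159, 29.4, 185, 165, 76.7 and 54.7 CPM in libraries 1 to 6. Library 2 was again the lowest, while library 1, which was below library 5 for Cxcl9, stood close to libraries 3 and 4.

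The classical monocyte gate held 18085 UMIs (39.3%) and the other macrophage gate 14890 (32.3%). In classical monocytes the level was 144 CPM (142 to 146), with 18.4% of the cells positive. Libraries 1 to 6 stood at 352, 48.9, 244, 180.1, 140.5 and 81.4 CPM, with 39.9, 11.8, 25.8, 16.7, 16.2 and 14.9% positive. The other macrophage gate stood at 214 CPM (210.0 to 217) with 25.6% positive, and its libraries at 208, 51.4, 229.8, 428, 217 and 126 CPM. Library 1 was highest in monocytes and library 4 in macrophages, and library 2 was lowest in both.

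Fibroblasts, the matrix-building cells of the synovial lining, stood highest with 298 CPM (276 to 321) in 135 cells. Of their 682 UMIs, 323 came from 2 cells, and without these cells the level is 159 CPM, below type 2 dendritic cells and other macrophages. Of the 4 libraries with at least 10 fibroblasts, libraries 1, 3, 5 and 6 stood at 331, 918, 65.8 and 364 CPM. These fibroblasts passed a CD45 sort, so they are not a fair sample of the tissue. Macrophage markers summed to 734 CPM in Cxcl10-positive and 932 CPM in Cxcl10-negative fibroblasts. Type 2 dendritic cells stood at 235 CPM (226 to 243.5) with libraries at 152, 10.8, 416, 335, 261 and 68.8 CPM. Type 1 dendritic cells, at the level of macrophages for Cxcl9, stood at 70.6 CPM for Cxcl10 with 4.14% positive. Of their 278 UMIs, 167 came from 1 of the 7 positive cells, and the median over libraries was 22.7 CPM.

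T cells carried Cxcl10 as well. Over the T cell gate, 13.8% of 1088 cells were positive and the level was 93.5 CPM, against 7.22 CPM and 0.919% for Cxcl9. γδ T cells, unconventional T cells of barrier and inflamed tissue, stood at 166 CPM (148 to 185), with libraries at 96.7, 0, 419, 119.8, 44.6 and 299 CPM. CD4 T cells stood at 115 CPM, with libraries at 38.6, 158, 165, 31.9, 30.5 and 334 CPM. Of their 323 UMIs, 90 came from 2 cells, and without these cells the level is 84.5 CPM. CD8 T cells stood at 24.0 CPM with 8.39% positive. The share in B cells was 0.963% and in precursor B cells 0.404%, with median depths of 5696 and 8160 UMIs against 9216.5 in T cells. When each cell was thinned to 3000 UMIs, 7.88% of T cells and 0.527% of B cells were expected to be positive. Macrophage markers were not higher in Cxcl10-positive CD4 T cells (48.8 CPM against 59.1 CPM in the others), and were higher in Cxcl10-positive CD8 T cells (26.9 against 5.92 CPM). They were not compared in γδ T cells.

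Granulocyte precursors, the Mpo and Elane cells that give rise to neutrophils, held a low level in many cells. They stood at 47.0 CPM with 17.6% positive (6.47% after thinning), and libraries 1 to 6 stood at 35.8, 42.4, 44.7, 55.0, 31.5 and 61.4 CPM. The spread between libraries was far narrower than in monocytes, and library 2 was not set apart. Mature neutrophils stood at 22.0 CPM with 3.23% positive, and their positive cells had a median of 10445.5 UMIs against 7231 in the negative ones. Mast cells stood at 120 CPM, but 134 of their 135 UMIs came from 1 cell. Resident macrophages stood at 51.5 CPM with 9.62% positive, nonclassical monocytes, the vessel-patrolling kind, at 5.72 CPM and B cells at 3.11 CPM.

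The balance of the ligands differed between classes. The ratio of Cxcl10 to Cxcl9 UMIs was 1.20 over all cells, 0.884 in other macrophages, 1.51 in classical monocytes, 0.640 in type 2, 0.346 in migratory and 0.313 in type 1 dendritic cells. It was 3.82 in neutrophils, with libraries of at least 20 Cxcl9 UMIs from 2.25 to 5.01. In type 1 dendritic cells such libraries ran from 0 to 1.09, and 167 of the 278 Cxcl10 UMIs came from 1 cell. Granulocyte precursors held 1622 UMIs of Cxcl10 and 27 of Cxcl9, the latter in 5 cells, and CD4 T cells 323 and 32, the latter in 3 cells, which is too few for a ratio per library. Both are counts of 3′ ends, so the ratio compares captured molecules of 2 different genes. In other macrophages the ratio was 2.65, 1.15, 0.961, 0.664, 0.943 and 0.633 in libraries 1 to 6, and in classical monocytes 3.62, 4.98, 0.994, 0.836, 1.12 and 2.87. Libraries 1 and 2 leaned towards Cxcl10 in both gates.

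**Figure D2:**
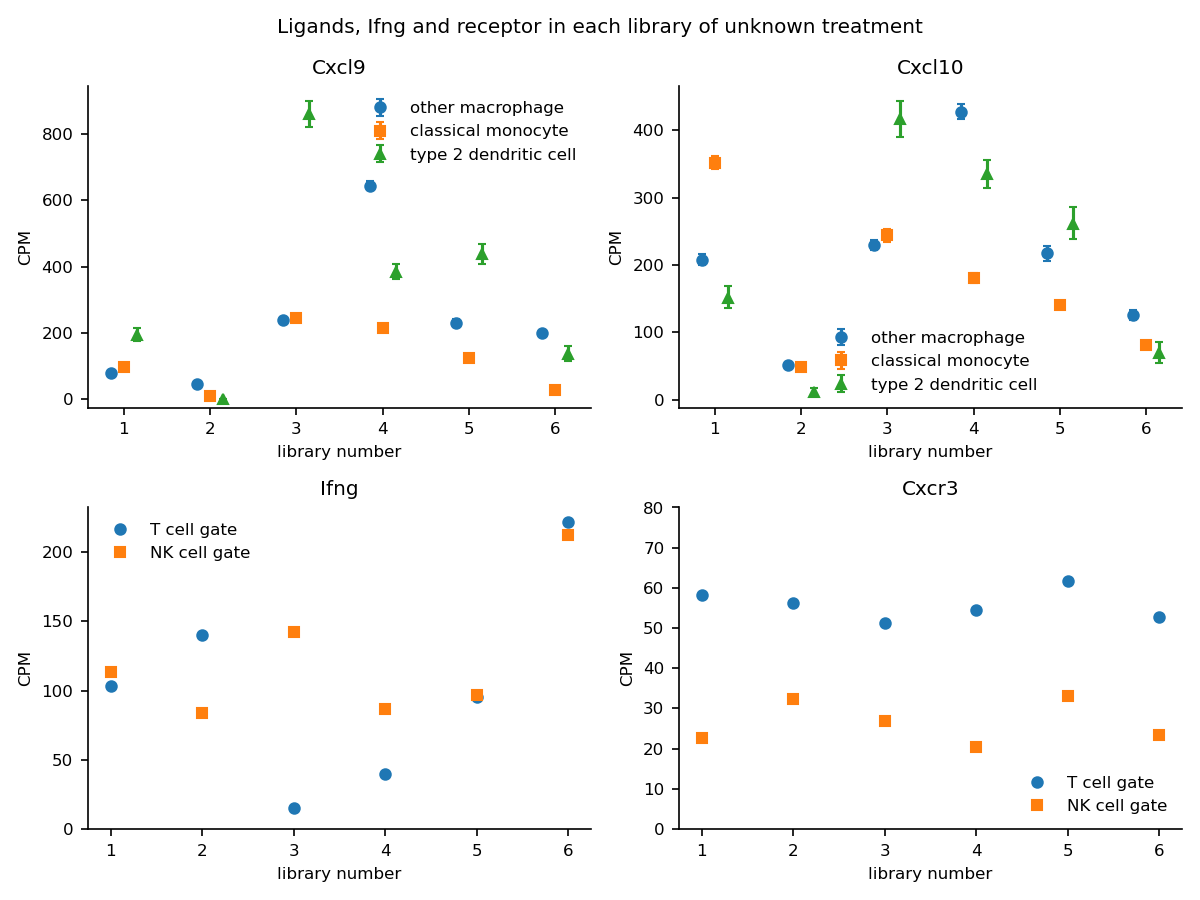
Level (CPM) by library number 1 to 6 of Cxcl9 and Cxcl10 in other macrophages, classical monocytes and type 2 dendritic cells, and of Ifng and Cxcr3 in the T cell and NK cell gates. Bars, drawn for the ligands, are exact Poisson 95% intervals. Library 2 is the lowest for both ligands in all 3 myeloid gates, whereas Cxcr3 in T cells stays between 51.2 and 61.7 CPM in every library.

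Cells with Cxcl9 held Cxcl10 more often than cells without it. In the other macrophage gate, 281 of 510 Cxcl9-positive cells held Cxcl10, 55.1% (50.8 to 59.4%) against 20.5% (19.1 to 22.0%) of the Cxcl9-negative cells. The positive cells were deeper, with a median of 23312.5 against 17628.5 UMIs, and the shares after thinning to 3000 UMIs were 41.8% and 11.6%. In libraries 1, 3, 4, 5 and 6, the shares were 42.1 against 31.2%, 50.7 against 25.9%, 66.2 against 19.6%, 57.7 against 21.6% and 45.8 against 12.9%. The share was higher in Cxcl9-positive cells in all 5 libraries with at least 10 of them, by least in library 1.

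Classical monocytes gave nearly the same shares, 52.9% (47.9 to 57.9%) of 374 Cxcl9-positive cells against 16.0% (15.1 to 17.0%), or 37.4% against 7.56% after thinning. Libraries 1, 3, 4, 5 and 6 stood at 61.0 against 37.5%, 42.3 against 22.4%, 65.5 against 11.3%, 51.0 against 13.2% and 48.5 against 14.1%. In type 2 dendritic cells the shares were 50 against 16.2% and in resident macrophages 55.8 against 7.94%. Resident macrophages with Cxcl9 were far deeper than those without (31519 against 13654.5 UMIs), and their thinned shares were 37.1 and 3.58%. In type 1 dendritic cells 12.5% of Cxcl9-positive (4 cells) and 2.19% of Cxcl9-negative cells (3 cells) held Cxcl10. Read from the other gene, 31.9% of Cxcl10-positive other macrophages held Cxcl9, against 8.95% of the Cxcl10-negative ones. Over all cells, 630 held both ligands, 599 held Cxcl9 alone and 2618 held Cxcl10 alone.

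**Figure D3:**
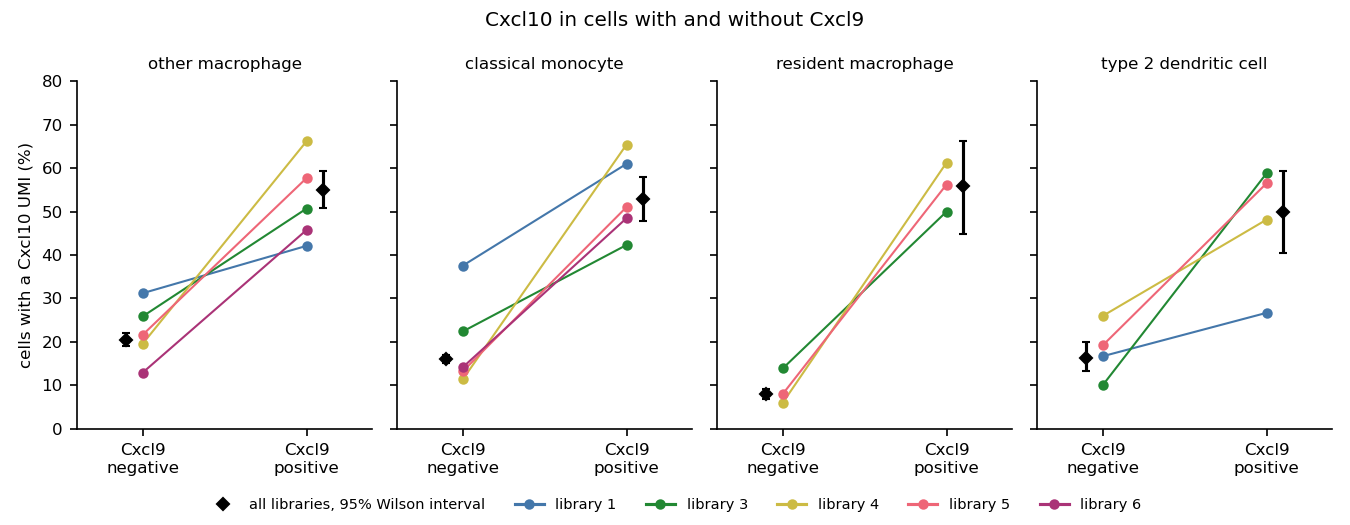
Share of cells with Cxcl10 (%) among Cxcl9-negative and Cxcl9-positive cells of 4 gates. Points joined by lines are library numbers with at least 10 Cxcl9-positive cells and the larger marks are all libraries pooled. In other macrophages the pooled share is 20.5% without and 55.1% with Cxcl9, and every library drawn rises from left to right.

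The 2 large gates do not split the main Cxcl9 cells cleanly. When cells were instead clustered on their whole transcriptome, 1 cluster of 1053 cells held 42.0% of all Cxcl9 (832 CPM) and 36.6% of all Cxcl10 (872 CPM). Of its cells, 65.6% were in the classical monocyte gate and 31.2% in the other macrophage gate. The clustering used the ligand genes themselves, so their level there is a description. Clusters named as classical monocytes held 43.1% of Cxcl9 and those named as macrophages without resident markers 34.2%.

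Genes carried beside each ligand were compared between positive and negative cells of the same gate, with UMIs summed over the cells of all 6 libraries. For the gene lists, genes of at least 50 CPM over all cells of the gate were counted, a minimum that the difference between the compared cells does not set. A gene was called where it was higher (or lower) in the positive cells of every library with at least 10 of them. Genes of the lists below that minimum are given as values. The largest and lowest ratios use a minimum in the positive cells, or in either set, and so favour genes that are high there. The shares over all genes counted use the minimum over the gate and do not describe those genes. Cells of 1 library are not replicates, so no p-value was computed.

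In other macrophages, 510 Cxcl9-positive cells were compared with 2932 negative ones. The summed values take in all 6 libraries, and the calls the 5 with at least 10 positive cells. Library 2, where 1.28% of the other macrophages were positive and Gbp2 stood lowest, entered the sums mostly on the negative side. Of the 3368 genes counted, 13.9% were higher and 18.0% lower in every library of the 5. Of the interferon-γ input list, 6 of 9 counted genes were higher in every library, with a median ratio of 1.44 against 0.985 over all genes counted. They included the interferon-induced GTPase Gbp2 (522 against 132 CPM, ratio 3.97), the checkpoint ligand Cd274 (2.36), the transcription factor Irf1 (1.49), the signalling kinase Jak2 (1.44) and Slamf7 (1.37). Below the minimum, Gbp5 stood at 93.9 against 21.3 CPM and Socs1, a brake on this signal, at 61.4 against 23.04 CPM. Of the type I interferon list, 2 of 6 were higher, Isg15 (1.6) and the receptor chain Ifnar2 (1.05), with a median of 1.14. None of the 5 NF-κB genes was, with a median of 0.989.

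The 10 genes with the largest ratio in Cxcl9-positive other macrophages, among genes of at least 50 CPM in the positive cells, were Serpina3g (14.2), Ccl5 (10.2), Ccl17 (10.1), Procr (9.90), Saa3 (8.66), Ly6i (7.24), Pdcd1lg2 (6.35), AW112010 (5.75), Cxcl10 (5.45) and Inhba (4.80). Ccl5 and Ccl17 are chemokines for T cells, and Pdcd1lg2 is a second ligand of the checkpoint receptor PD-1. Ccl17 is also a marker of the migratory dendritic cell gate and a leading gene of the type 2 dendritic cell gate. The part of dendritic cell RNA in this comparison was not tested. The Saa3 ratio falls to 3.88 without library 5. Pf4, another chemokine described as a ligand of Cxcr3, went the other way at 271 against 748 CPM (0.362) and was lower in every library.

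In classical monocytes, 18.8% of the 3347 genes counted were higher and 30.8% lower in every library among 374 Cxcl9-positive against 5358 negative cells. The 8 macrophage markers moved with Cxcl9 here, at 2055 against 1196 CPM, and their part in the values that follow was not tested. Of the interferon-γ list 5 of 7 were higher (median ratio 1.82), of the type I interferon list 3 of 5 (1.84) and of the NF-κB list 4 of 4 (1.55), against a median of 0.973 over all genes counted. Gbp2 stood at 589 against 55.4 CPM (10.6), and the receptor chain Ifngr1 was lower in every library (0.806). The largest ratios, among genes of at least 50 CPM in the positive cells, were those of Serpina3g (23.6), the GTPase Iigp1 (14.5), the survival gene Bcl2a1a (13.5), Ccl5 (13.1) and Ly6i (12.8).

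Both interferon lists were then set beside Cxcl10. In other macrophages, 8.64% of the 3368 genes were higher and 15.1% lower in every library among 882 Cxcl10-positive against 2560 negative cells. Of the type I interferon list, 5 of 6 counted genes were higher, with a median ratio of 1.72 against 0.981 over all genes counted. They included the antiviral genes Rsad2 (234.5 against 74.5 CPM, 3.15) and Isg15 (468 against 189.9 CPM, 2.46) and the transcription factor Irf7 (1.78). Below the minimum, Ifit3 stood at 54.9 against 15.8 CPM and Ifit1 at 51.6 against 17.5 CPM. Of the interferon-γ list 6 of 9 were higher (median 1.47), while Ifngr1 (0.875) and Jak1 (0.903) were lower in every library. Of the NF-κB list 1 of 5 was higher, the inhibitor Nfkbia (1.14).

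In classical monocytes, 6.30% of the 3347 genes were higher and 10.2% lower in every library among 1056 Cxcl10-positive against 4676 negative cells. Macrophage markers stood at 1630 against 1158 CPM in these cells, and their part was not tested. Of the type I interferon list, 3 of 5 were higher (median ratio 2.62), Rsad2 (6.28), Isg15 (4.17) and Irf7 (2.62). Library 1 had the largest share of positive monocytes (39.9%) and the highest Isg15 (759 CPM), so it weighed more on the positive side of the sums. With 1 library left out, the ratio fell to as low as 4.42 for Rsad2 and 3.04 for Isg15. Within libraries, it ran from 3.48 to 6.72 for Rsad2 and from 2.32 to 5.00 for Isg15. Of the interferon-γ list 4 of 7 were higher (1.39) and of the NF-κB list 3 of 4 (1.51). Below the minimum, Ifit1 stood at 59.9 against 6.99 CPM and Ifit3 at 71.1 against 8.41 CPM.

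Cells with 1 ligand alone were compared next. In other macrophages, 229 cells with Cxcl9 and no Cxcl10 stood against 601 cells with Cxcl10 and no Cxcl9. Their median depth was close, 21561 and 21131 UMIs. Of the 3367 genes counted, 11.9% were higher and 8.91% lower in every library in the cells with Cxcl9 alone. The median ratio was 1.02.

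Of the type I interferon list, 3 of 6 counted genes were lower in every library in cells with Cxcl9 alone, with a median ratio of 0.652. They were Rsad2, at 86.9 against 260.0 CPM (0.334), Irf7, at 116 against 202 CPM (0.576), and Isg15, at 294 against 464 CPM (0.634). Below the minimum over the gate, Ifit3 stood at 14.5 against 68.9 CPM, a ratio of 0.210 with libraries from 0.209 to 0.345, and Ifit1 at 16.4 against 61.2 CPM (0.267). Both were also lower in every library.

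No counted gene of the interferon-γ list went 1 way in every library (0 of 9, median 1.01). Gbp2 stood at 372 against 225 CPM (1.66) and Irf1 at 106 against 155 CPM (0.680). Below the minimum, Ciita of this list stood at 35.4 against 21.6 CPM (1.64) and was higher in every library. Gbp5 went the other way, at 33.1 against 45.5 CPM (0.728), and was higher in 1 of 5 libraries. Of the NF-κB list, 2 of 5 were lower in every library, Rela (0.844) and Nfkbia (0.704), with a median of 0.779. Among genes of at least 50 CPM in either set, the largest ratios for Cxcl9 alone were those of Ly6i (4.76), the integrin Itgax (3.24), Inhba (2.96), Anpep (2.93) and AW112010 (2.76). The lowest among genes lower in every library were those of Ifit3, Ifit2 (0.249), Ifit1, the chemokine Ccl12 (0.269) and Rsad2, and Pf4 stood at 273 against 567 CPM (0.481). Ifit1, Ifit2 and Ifit3 met this minimum only in the cells with Cxcl10 alone. Their place among the lowest ratios thus depends on a minimum met through the cells where they are high.

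In classical monocytes, 176 cells with Cxcl9 alone stood against 858 with Cxcl10 alone, with 8.58% of 3346 genes higher and 12.0% lower in every library. Of the type I interferon list, 1 of 5 counted genes was lower in every library, Irf7 (111 against 177 CPM, 0.629), with a median ratio of 0.792. The Irf7 ratio reached 0.971 with 1 library left out. Isg15, at 327 against 413 CPM (0.792), was higher in 3 of the 5 libraries. Ifnar1 (1.16) and Ifnar2 (1.07) stood higher in the summed counts. Rsad2, at 64.6 against 245 CPM, was lower in 4 of the 5 libraries. Below the minimum, Ifit1 stood at 6.01 against 58.7 CPM (0.102), Ifit3 at 8.52 against 72.5 CPM (0.117) and Mx1 at 11.5 against 71.2 CPM (0.162), each lower in every library. Stat2 (0.560), also below the minimum, was lower in every library too. Oas3 (0.793) and Irf9 (0.914), below it as well, were each higher in 1 of 5 libraries. Of the interferon-γ list 1 of 7 was higher, Gbp2 (481 against 128 CPM, 3.75), and of the NF-κB list 0 of 4 went 1 way in every library. Below the minimum, Slamf7 of the interferon-γ list stood at 75.9 against 47.9 CPM (1.58) and was higher in every library. Gbp5 went the other way, at 26.1 against 40.1 CPM (0.650), and was higher in 1 of 5 libraries.

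Monocytes with Cxcl10 alone also held granulocyte precursor RNA that was low in those with Cxcl9 alone. The precursor proteases stood at 138 against 1.75 CPM for Ctsg and 449 against 40.6 CPM for Prtn3, and Mpo at 94.0 against 1.75 CPM. The part of these cells in the monocyte comparison was not tested. In the other macrophage gate, none of these 3 was among the 10 genes with the lowest ratios. That list takes only genes of at least 50 CPM in either set that were lower in every library. Their part in the macrophage comparison was not tested either.

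**Figure D4:**
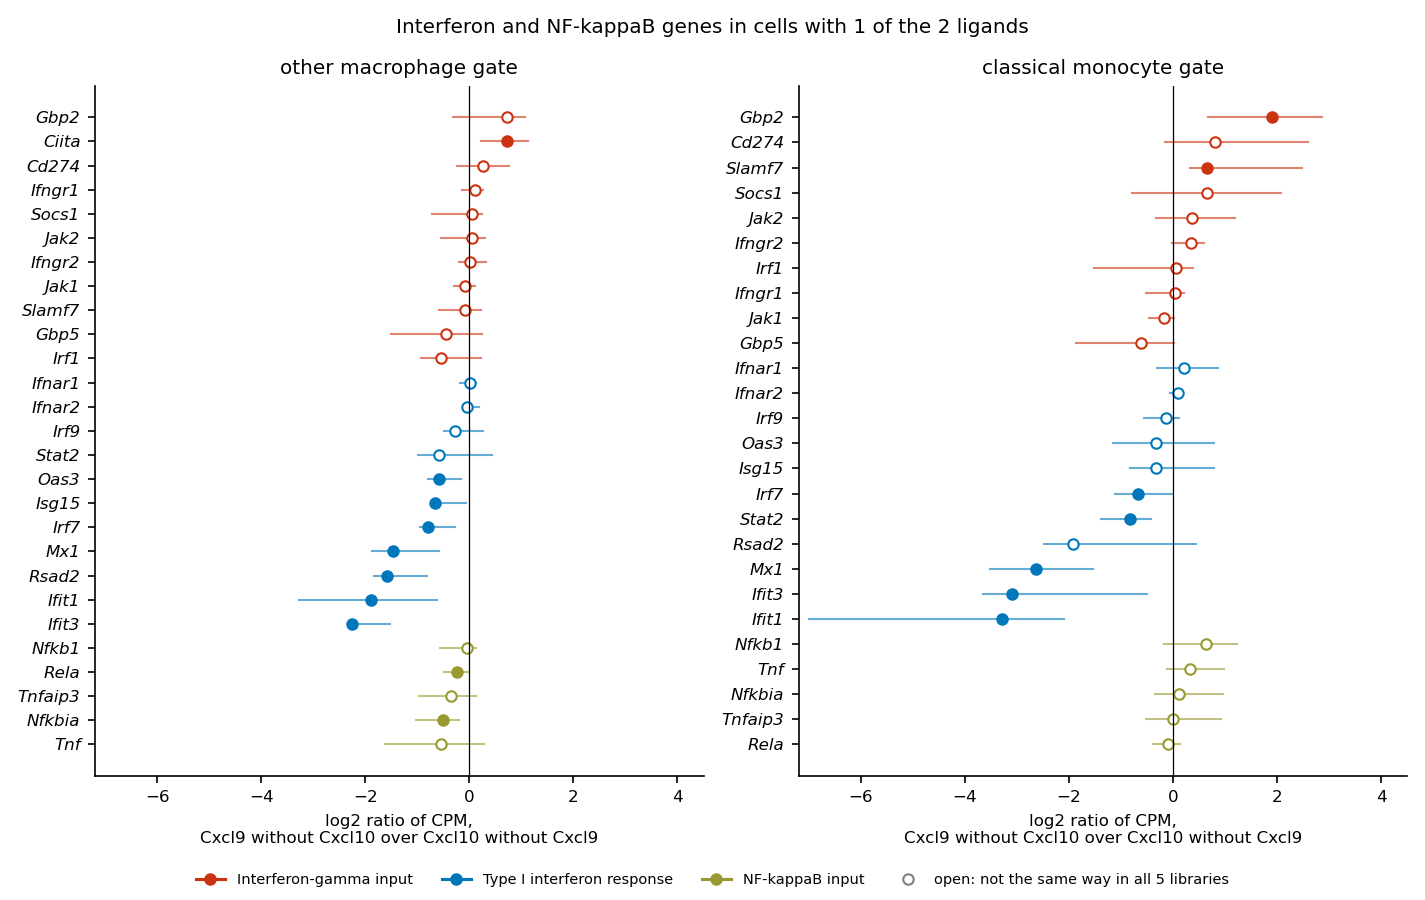
Log2 ratio of CPM in cells with Cxcl9 alone over cells with Cxcl10 alone, for interferon and NF-κB genes of the lists with at least 10 CPM over the gate, in other macrophages and classical monocytes. Points are all libraries pooled. Lines run from the lowest to the highest of the 5 libraries with at least 10 cells of each set, and filled points went the same way in all 5. The library with no Ifit1 in monocytes with Cxcl9 alone is drawn at the left edge. Ifit1 and Ifit3, both below 50 CPM over each gate, lie to the left of 0 in both gates, and Ifnar1 lies to the right.

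The level of these response genes also differed between libraries. In other macrophages, Isg15 stood at 601, 115, 238, 279.7, 319 and 130.1 CPM in libraries 1 to 6 and Ifit3 at 79.2, 11.3, 17.6, 17.7, 22.1 and 24.5 CPM. Library 1, with the ratio of 2.65 for Cxcl10 to Cxcl9, was highest for both. Gbp2 stood at 134, 34.0, 324, 256, 271 and 193 CPM. For Gbp2, library 1 was the second lowest. Library 2, lowest for both ligands but with the next highest ratio of Cxcl10 to Cxcl9 (1.15), was lowest for all 3 of these genes. In classical monocytes, library 2 had the highest ratio (4.98) but stood at 86.5 CPM of Isg15 and 11.5 CPM of Ifit3. Library 1, with a ratio of 3.62 there, stood at 759 and 96.7 CPM.

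Cxcr3, the receptor, stood highest in T and NK cells and was counted sparsely. Of its 885 positive cells, 70.3% had a single UMI, and the highest cell had 9. The T cell gate held 649 of the 1337 UMIs (48.5%), at 55.7 CPM (51.5 to 60.2) with 33.9% positive (14.0% after thinning). Libraries 1 to 6 stood at 58.2, 56.3, 51.2, 54.5, 61.7 and 52.9 CPM. The libraries lay within the counting interval or close to it, in contrast to the ligands. Over the whole library, Cxcr3 stood at 3.82, 2.70, 4.21, 3.13, 2.14 and 2.07 CPM. The 2 libraries with the highest of these levels, 3 and 1, also had the largest shares of T cells (6.99 and 5.44%).

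By level, the T cell subsets did not separate. Regulatory T cells (Foxp3) stood at 61.5 CPM (47.0 to 79.0), CD8 T cells at 59.0 (50.8 to 68.1), T cells without a subset at 56.2 (47.7 to 65.7), CD4 T cells at 52.9 (44.7 to 62.2) and γδ T cells at 51.0 (41.4 to 62.1), and all these intervals overlap. The CD8 T cells, which held the most Cxcr3 UMIs of a subset (187, 14.0%), stood at 73.5, 46.8, 48.9, 59.3, 63.0 and 65.0 CPM in libraries 1 to 6. Of them 39.8% (34.2 to 45.7%) were positive, or 14.5% after thinning. Regulatory T cells held 61 UMIs in 23 cells, with libraries from 5.67 to 118 CPM. At own depth, their share of 20.2% (13.8 to 28.5%) lay below that of CD8 T cells. It also lay below that of T cells without a subset (37.9%, 32.2 to 44.1%). After thinning, 11.2% of regulatory T cells and 14.9% of T cells without a subset were expected to be positive. NK cells, the innate cytotoxic lymphocytes, stood at 27.4 CPM (22.0 to 33.8) with 20.1% positive. Their libraries, at 22.7, 32.3, 26.8, 20.3, 33.0 and 23.3 CPM, all lay below the lowest library of the whole T cell gate (51.2 CPM).

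Some dendritic cells held Cxcr3 as well. Plasmacytoid dendritic cells, the professional type I interferon producers, stood at 19.9 CPM (16.8 to 23.4) with 18.6% positive. Their libraries 1 to 6 stood at 7.84, 13, 17.1, 37.4, 29.7 and 18.1 CPM. Type 1 dendritic cells stood at 18.5 CPM (14.5 to 23.3) with 25.4% positive, or 4.93% after thinning, and libraries at 13.7, 24.2, 17.2, 26.4, 10.6 and 16.7 CPM. The 2 classes overlap. Type 2 dendritic cells stood at 1.16 CPM.

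T cell RNA in these Cxcr3-positive cells was measured beside it. The 7 T cell markers summed to 28.8 CPM in Cxcr3-positive and 31.9 CPM in negative type 1 dendritic cells. In plasmacytoid dendritic cells they summed to 40.0 and 13.2 CPM, with at least 2 markers in 0.943 and 1.08% of the cells. In classical monocytes, at 1.13 CPM of Cxcr3, T cell markers stood further apart, at 193 against 7.86 CPM and at least 2 markers in 20 of 115 cells (17.4% against 0.570%). Resident macrophages stood at 2.20 CPM with 3.22% positive, and their T cell markers at 54.4 against 2.74 CPM. Classical monocytes held 10.6% and resident macrophages 6.13% of all Cxcr3 UMIs. Other macrophages (0.875 CPM), neutrophils (0.276 CPM) and B cells (0.229 CPM, 0.151% positive) stood lower. No Cxcr3 UMI was found in 495 precursor B cells, which allows a share of up to 0.606%.

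The receptor and its ligands met in the same cell in some lymphocytes. Of 369 Cxcr3-positive T cells, 52 held Cxcl10 (14.1%, against 13.6% of the Cxcr3-negative ones) and 2 held Cxcl9. Of 61 Cxcr3-positive NK cells, 12 held Cxcl10 (19.7% against 7.00%). These shares are at the cells' own depth, and the part of depth in them was not tested. Of 43 Cxcr3-positive type 1 dendritic cells, 3 held Cxcl9.

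Cxcr3-positive T cells were then set beside the negative ones in the same way, 369 against 719 cells in 6 libraries. Their median depths were 10733 and 8476 UMIs. Of 3399 genes counted, 7.38% were higher and 10.2% lower in every library, with a median ratio of 0.979. Of the type 1 lymphocyte list, 4 of 10 counted genes were higher in every library (median 1.49). They were the cytotoxic granule gene Nkg7 (1.79), the master factor Tbx21 (1.74), the interleukin 12 receptor chain Il12rb2 (1.70) and the chemokine Ccl5 (1.51). Cxcr6, a receptor of tissue T cells, stood at 128 against 190.4 CPM (0.674). Il18r1, a chain of the interleukin 18 receptor, was lower in every library (0.819).

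Ifng, the gene of interferon-γ, stood at 147 against 72.5 CPM (ratio 2.03) and was higher in 4 of 6 libraries. Ccr7, the receptor that guides naive and central memory T cells to lymph nodes, stood at 59.9 against 118 CPM (0.509) and was lower in every library. The largest ratios, with the same minimum in the positive cells as above, were those of the cell cycle gene Ube2c (3.28), the chemokine Ccl4 (3.23), Ly6c2 (2.52) and Cd160 (2.13).

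By share of cells, Tbx21 was found in 56.6% of Cxcr3-positive and 28.9% of Cxcr3-negative T cells (30.1 and 19.0% after thinning). Ifng was found in 25.5 against 11.1% (16.3 and 8.72% after thinning). Ccr6, the receptor of cells that make interleukin 17, was found in 5.42 against 14.2% and Il17a itself in 4.88 against 9.60%. Gata3, the factor of type 2 T cells, was found in 42.0 against 43.4%. The order of Tbx21, Ifng, Ccr6 and Il17a held after thinning, while Cxcr6 was found in 42.5 against 39.8% of the cells at their own depth.

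**Figure D5:**
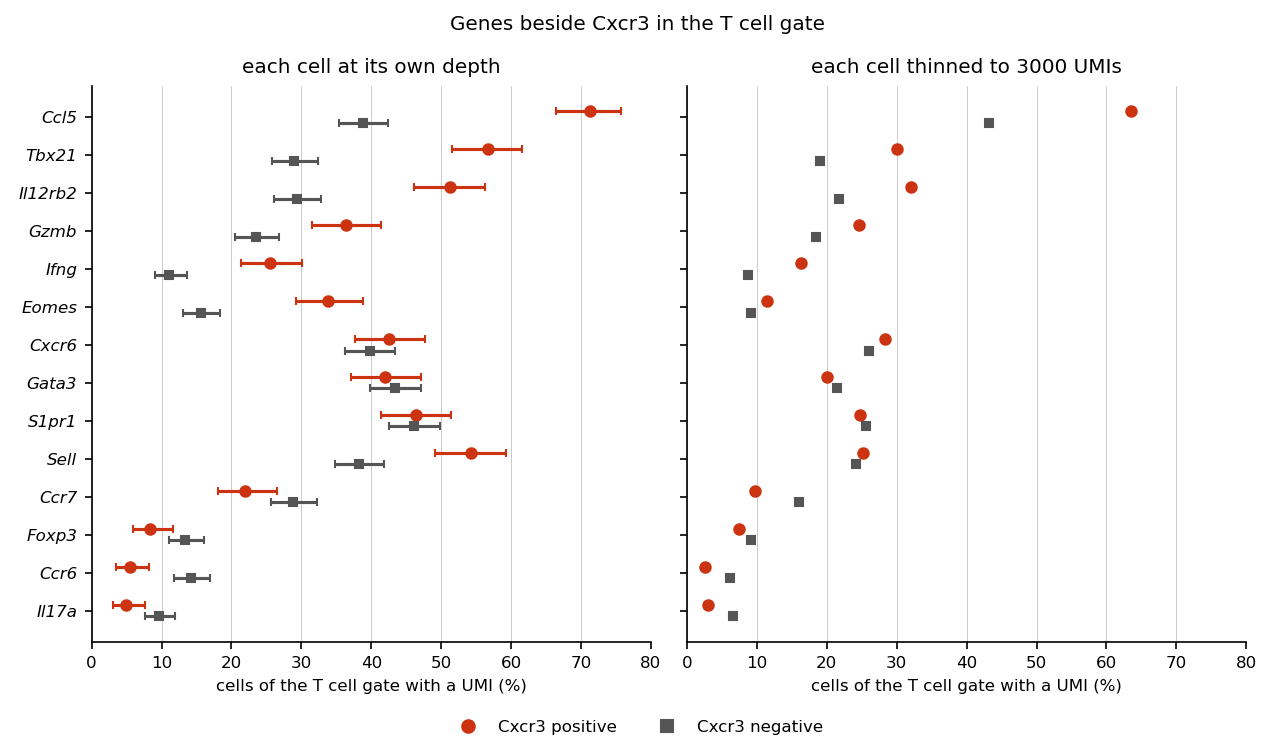
Share of T cells (%) with a UMI of each gene shown, in Cxcr3-positive (369) and Cxcr3-negative (719) cells, at the cells' own depth and after thinning each cell to 3000 UMIs. Tbx21 stands at 56.6 against 28.9% at own depth, and Ccr6 at 5.42 against 14.2%.

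The contrast was wide in γδ T cells, where Il17a was found in 12.3% of the Cxcr3-positive and 30.3% of the Cxcr3-negative cells. Tbx21 was found in 64.9 against 27.7% of them. After thinning, these shares were 9.70 against 20.1% for Il17a and 39.0 against 19.5% for Tbx21. In CD4 T cells, Tbx21 was found in 51.2 against 18.7% (29.6 and 13.7% after thinning) and Ifng in 28.6 against 11.8%. T cells without a subset showed little contrast, with Tbx21 in 55.2 against 45.9%, or 28.5 and 28.3% after thinning. There the share was higher in Cxcr3-positive cells in 1 of 5 libraries. In NK cells, where Tbx21 is a lineage gene, it was found in 88.5 and 82.7% (54.3 and 55.8% after thinning). Il12rb2 was found in 70.5 against 87.7% of them (48.5 and 65.1% after thinning).

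In CD8 T cells, 109 Cxcr3-positive cells were compared with 165 negative ones, with 5.68% of 3184 genes higher and 5.03% lower in every library. The 10 genes with the largest ratio, among genes of at least 50 CPM in the positive cells, were Top2a (6.08), Gmnn (3.60), Stmn1 (3.59), Smc2 (3.51), Rbpms (2.84), Rrm1 (2.82), Hmgb2 (2.53), Ddx39 (2.45), Tipin (2.42) and Rttn (2.35). Top2a untangles DNA when cells divide. Of the type 1 list 1 of 11 was higher in every library, Eomes (1.38), with a median of 1.35 against 1.00 over all genes counted. Mki67, a marker of cycling cells, was found in 19.3% of the Cxcr3-positive and 4.85% of the negative cells (11.4 and 5.16% after thinning). Ccr7 stood at 100 against 236 CPM (0.426) and was lower in every library. Cxcr3-positive cells were the deeper ones here too, at 12494 against 9584 UMIs.

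Ifng, which acts upstream of both ligands, gave 1829 UMIs in 401 cells, and 85.6% of them were in T cells (64.9%) and NK cells (20.7%). It stood at 157 CPM in γδ T cells, 124 in CD4 T cells, 117 in NK cells and 95.6 in CD8 T cells. Over T and NK cells together, libraries 1 to 6 stood at 105, 122, 42.9, 48.6, 95.7 and 220.4 CPM. Libraries 3 and 4, the highest for Cxcl9 over the whole library, were the lowest for Ifng in these lymphocytes. In library 3, T cells stood at 15 CPM and NK cells at 142 CPM of Ifng, so the low value came from T cells. Over the whole library, Ifng stood at 5.46, 4.49, 3.30, 1.85, 2.26 and 5.28 CPM. No relation between Ifng and the ligands was tested over these 6 libraries of unknown treatment.

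Over all other macrophages, with and without the ligands, RNA of the interferon-γ receptor chains stood at 206 CPM for Ifngr1 and 130 CPM for Ifngr2. In this gate, Ifngr1 was lower in the summed counts of cells positive for either ligand than in the negative ones. Ifnb1, the gene of interferon-β, stood at or below 0.335 CPM in every class. Of the inducers of interferon-γ, Il12b, the shared chain of interleukins 12 and 23, stood at 549 CPM in migratory dendritic cells, 70.3 in type 1 and 16.6 in type 2 dendritic cells. Its partner chain Il12a was highest in plasmacytoid dendritic cells (143 CPM). Il15 was highest in neutrophils (192 CPM), Il18 in type 1 dendritic cells (32.0 CPM), and Il27 reached at most 7.80 CPM. Of the gated classes, migratory dendritic cells thus held the highest pooled level of both Cxcl9 and Il12b.

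Among the partners of the axis, Pf4 stood at 2998 CPM in resident macrophages and 659 in other macrophages. Ccl5 stood at its highest level in NK cells. Dpp4, the peptidase that trims both ligands, stood at 389 CPM in precursor B cells, 208 in B cells, which held 51.7% of its UMIs, and 130 in type 1 dendritic cells. The decoy receptor Ackr1 stood at 24.5 CPM in fibroblasts.

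Across the 23 classes, the genes with a pattern most like each member were taken by Pearson's r of log2(CPM + 1) among 10506 genes that reached 20 CPM in a class. For Cxcl9 they were Wnt11 (0.83), Cxcl16 (0.82), Batf3 (0.80), Clec4b1 (0.80) and Slamf8 (0.80). For Cxcl10 they were Hnrnpll (0.81), Fgl2 (0.76), Hk2 (0.75), Rarg (0.74) and Maff (0.74), and for Cxcr3 they were Cd28, Sh2d1a and 2310016D23Rik (0.88 each), Trbc1 and Il2rb (0.87 each). Between members, r was 0.56 for Cxcl9 with Cxcl10, −0.19 for Cxcl9 with Cxcr3 and 0.08 for Cxcl10 with Cxcr3. All classes come from the same 6 libraries, and the values are descriptions.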

How the data were processed

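Libraries from CD45-sorted synovial cells of 6 samples were made with a 10x Genomics 3′ kit. The authors aligned reads to mm10 with Cell Ranger 7, lowered free RNA with SoupX, removed doublets with DoubletFinder and filtered cells with Seurat. They deposited UMI counts of all cells as 1 matrix, which stores 1724738 entries set to 0, of which 162, 334 and 9 belong to Cxcl9, Cxcl10 and Cxcr3. Whether these zeros come from the free RNA step was not tested. No further doublets were sought.

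The members, marker lists and gene lists were chosen with earlier results of these data known, and the gates were set after values had been seen. A cell took the class with the highest mean of log-scaled markers (each capped at its 90th percentile) among classes with at least 3 markers detected. Macrophages with at least 3 resident markers were split off. T cells were split by γδ genes, Foxp3, Cd4 or Cd40lg, and Cd8a or Cd8b1. For 1293 cells, a second class reached 0.9 of the best score.

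UMIs were summed per gate and scaled to CPM. Thinned shares are the shares expected when a cell is reduced to 3000 UMIs, leaving out shallower cells. A count of 0 was given the limit that 3 counts allow. The genes named are the members, 7 lists of 60 genes (59 in the table, some not reported here), the 5 genes most like each member, and, where most of the UMIs of Cxcl9 or Cxcr3 lie, the 10 largest ratios beside a positive cell. Comparisons beside Cxcl10, in classical monocytes, between cells with 1 ligand alone and over all T cells, the genes Ifit2, Ccl12, Ctsg, Mpo, Prtn3, Il17a, Gata3 and Mki67 and the other genes named there, were chosen after values were seen. Cells are not replicates and libraries could not be grouped, so no test was run on the counts. Python 3.11.15, numpy 2.4.6, scipy 1.17.1, pandas 2.3.3, scanpy 1.11.5, igraph 0.11.9 and matplotlib 3.10.9 were used. For clusters, counts were scaled to 10000, and 2000 genes, 30 components, 15 neighbours and resolution 1.0 gave 35 clusters. The minimum of 50 CPM over all cells of a gate replaced, for the lists, one in the positive cells after values were seen. Alternatives were other gates, clusters, depth, positivity and each library left out.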

Additional observations from a re-analysis of the deposited data

How the results depend on the processing

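No paired analysis was possible because the library numbers are linked to no sample, and no test was run between groups. Of 97 values under alternatives, 57 stayed within the counting interval or close to the count first found and 40 moved. Reversals of an order between classes were not looked for as such. The Cxcl9 level in other macrophages (241 CPM) was 169 CPM with clusters, 223.5 with 1 more marker, 214 as the median over libraries and 249 without cells near a cut. The Cxcl10 level in classical monocytes (144 CPM) was 197, 152 and 160 CPM with clusters, 1 more marker and the median. The share of positive cells was 9.36% after thinning and 11.3% at 2 or more UMIs for Cxcl9, 8.90 and 11.8% for Cxcl10, and 14.5 and 14.6% for Cxcr3 in CD8 T cells. The share of Cxcl9-positive cells with Cxcl10 was 41.8% thinned in macrophages, and 37.4% thinned and 43.7% at 2 or more UMIs in monocytes. With clusters, the shares of UMIs held were 34.2% (Cxcl9), 41.6% (Cxcl10) and 31.8% (Cxcr3), so that monocyte clusters held the most Cxcl9. With a pseudocount of 10, 2 of the 5 genes most like Cxcl9 and 0 of those most like Cxcr3 were shared. Leaving out each library in turn, the levels ran from 156 to 284 CPM for Cxcl9 (lowest without library 4, highest without library 2), 119 to 165 CPM for Cxcl10 (without libraries 1 and 6) and 56.1 to 62.3 CPM for Cxcr3. The shares of positive cells ran from 12.8 to 17.4%, 16.0 to 19.7% and 38.0 to 41.6%, and those of Cxcl9-positive cells with Cxcl10 from 50.6 to 56.8% and 50.8 to 55.7%. The number of type I interferon genes lower in every library with Cxcl9 alone ran from 3 to 4 in macrophages and 1 to 2 in monocytes (2 without library 6). With the minimum level met in either of the compared sets, which lets genes in through the cells where they are high, these numbers were 6 and 5 instead of 3 and 1. Depth limits Cxcr3 most, since most of its positive cells hold 1 UMI.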
